A study of Mus musculus with 3 samples.

Results

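The 8 genes described here encode subunits of ionotropic glutamate receptors, the channels that glutamate itself opens. They are the kainate receptor subunit Grik1, the 4 AMPA receptor subunits Gria1 to Gria4, and the NMDA receptor subunits Grin1, Grin2b and Grin3a. They were taken by name out of 18545 measured genes and followed through OFF bipolar cells (clusters 7 and 8), ON bipolar cells (clusters 2 and 3), amacrine cells (clusters 5 and 9) and Müller glia (cluster 0) of the mouse retina.

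The cells came from dissociated retinas and were sequenced singly for their RNA, from C57BL/6J-background mice aged 8 weeks, all reared in the dark. There were 3 groups with 1 pooled library each. WT mice of both sexes ate base chow, female rd10 mice ate the same chow (rd10-vehicle), and female rd10 mice ate chow with tamsulosin, metoprolol and bromocriptine (rd10-TMB). In rd10 mice a mutation of Pde6b, whose product is the phosphodiesterase of rods, causes the death of rods and later of cones, more slowly in darkness. A library was a pool of single retinas, of 4 mice per the labels and, for both rd10 libraries, of fewer per the study's text. Replicates were therefore lacking. Values of the WT, rd10-vehicle and rd10-TMB libraries are given in that order throughout, and all intervals are 95% intervals for counting error only, so a difference that passes them is one between libraries and says nothing of how mice of a group vary.

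Photoreceptors release glutamate in darkness. OFF bipolar cells sense it with AMPA and kainate receptors, whose channels open when glutamate binds, so these cells are active in the dark. ON bipolar cells, which include the rod bipolar cells, instead use the metabotropic receptor mGluR6 (Grm6) at that synapse and are inhibited by glutamate. Amacrine cells are inhibitory neurons of the inner retina that receive glutamate from bipolar cells through AMPA, kainate and NMDA receptors. Müller glia are the radial glia of the retina and clear glutamate by uptake. AMPA receptors are tetramers of GluA1 to GluA4, encoded by Gria1 to Gria4, and those without edited GluA2 let calcium through. An NMDA receptor needs the subunit encoded by Grin1, and Grin2b and Grin3a encode partners that set its kinetics and its block by magnesium.

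The AMPA and kainate subunits share a pore loop with a codon known as the Q/R site. In Gria2 and Grik1 the enzyme encoded by Adarb1 edits this codon in the RNA, which turns a glutamine into an arginine and limits the passage of calcium. The sequences below show how alike the members are around it. They are coding strands of 45 bases from the GENCODE annotation of mouse build GRCm38, with the Q/R-site codon in capitals.
Grik1: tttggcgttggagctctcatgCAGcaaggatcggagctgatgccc
Gria1: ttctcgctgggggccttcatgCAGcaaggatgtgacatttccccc
Gria2: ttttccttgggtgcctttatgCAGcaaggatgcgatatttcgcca
Gria3: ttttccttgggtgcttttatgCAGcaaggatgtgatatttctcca
Gria4: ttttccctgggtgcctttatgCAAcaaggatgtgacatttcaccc

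The genome reads glutamine at this codon in each of the 5 genes, as CAG in 4 of them and as CAA in Gria4. The Gria2 stretch lies on the minus strand at chr3:80706890-80706934, in exon 11 of 16, and the Gria1 stretch on the plus strand at chr11:57243073-57243117, in exon 11 of 16. Gria3 has it in exon 11 of 16 on the plus strand at chrX:41610244-41610288, and Gria4 in exon 12 of 17 on the minus strand at chr9:4464116-4464160. In Grik1 the codon lies at chr16:87940542-87940544 on the minus strand, in exon 12 of 17, and the last 17 of the printed bases belong to the next exon. Gria2 and Gria3 are identical at 42 of the 45 bases, Gria1 and Gria2 at 36, and Grik1 and Gria2 at 29. Libraries that read the 3′ ends of transcripts do not cover this codon in general, so neither editing nor the flip and flop splice forms could be read from these data.

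The matrix held 15242 cells, 4478, 5952 and 4812 per library, with a median of 3510 to 4812 unique molecular identifiers (UMIs) per cell and 18882951 to 37002532 UMIs in all. OFF bipolar cells numbered 273, 327 and 268, ON bipolar cells 791, 1230 and 1045, amacrine cells 756, 105 and 83, and Müller glia 530, 2492 and 1748. Amacrine cells made up 16.9%, 1.76% and 1.72% of the cells of the libraries and Müller glia 11.8%, 41.9% and 36.3%. Between 7 and 10 cell barcodes were shared by any 2 libraries. The cluster labels were checked against marker genes, counted where they reached 20 CPM (UMIs per 1000000 UMIs of the summed class) and 2-fold the rest of the cells. By this measure 7 of 13 OFF bipolar markers marked the OFF clusters together, among them Fezf2, Otor and Lhx3, and Grik1 itself, so the class of Grik1 is in part its own label. All 6 ON bipolar markers marked clusters 2 and 3 together, all 8 rod bipolar markers cluster 2, all 7 ON cone bipolar markers cluster 3, all 9 amacrine markers clusters 5 and 9 together, and all 9 Müller markers cluster 0. The cone bipolar markers were not exclusive, since 4 of the 13 OFF markers (Nnat, Chrm2, Pcdh17 and Otor) also passed in cluster 3, and 3 of the 7 ON cone markers (Scgn, Cabp5 and Kcng4) passed in the OFF clusters. Clusters 6 and 10, outside these classes, passed 6 and 5 of the 6 ON bipolar markers and 5 and 4 of the 9 amacrine markers. The clusters were made from the same genes and cells, so levels between clusters are a description and carry no test.

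Grik1, which encodes the kainate subunit GluK1, was the member with the largest ratio of OFF bipolar cells to ON bipolar cells and to Müller glia. Its level in OFF bipolar cells was 1078, 1103 and 986 CPM, against 35.6, 36.1 and 32.5 CPM in ON bipolar cells. The ratio of OFF to ON was 30.3, 30.6 and 30.4, with intervals that together ran from 24.9 to 37.3. On the log2 scale, with 1 UMI added to each side, it was 4.92 ± 0.0074 (SD, n = 3 libraries). These libraries are 3 groups and not replicates, and this SD is below the counting error of each ratio. The log2 ratio ran from 4.86 to 5.08 against cluster 2 alone and from 4.60 to 4.98 against cluster 3 alone. Rods made up 26.4%, 9.34% and 15.5% of the cells of the libraries. Amacrine cells had 28.6, 8.84 and 20.8 CPM and Müller glia 8.43, 3.56 and 2.74 CPM, so that no other class came near the OFF cells. A UMI of Grik1 was found in 91.6%, 89.3% and 93.3% of OFF bipolar cells. After each cell was thinned to 1000 UMIs the share was 62.5%, 60.9% and 64.3%. Rods (cluster 1), which should lack the gene, had one in 1.47%, 1.02% and 0.751% of cells thinned alike and in 1.95%, 1.26% and 0.938% unthinned, at a median of 1423, 1406 and 1536 UMIs per cell against 4083, 2944 and 3611 in OFF bipolar cells. ON rod bipolar cells of cluster 2, at 3.74%, 3.32% and 3.63% thinned, were above the rods in each library, though the intervals were apart only in rd10-TMB. Cluster 11, which passed 5 of 6 endothelial markers, had 58.7, 11.1 and 8.74 CPM of Grik1, in WT above the ON bipolar cells. Whether the Grik1 UMIs of ON bipolar cells were free RNA was not tested.

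**Figure D1:**
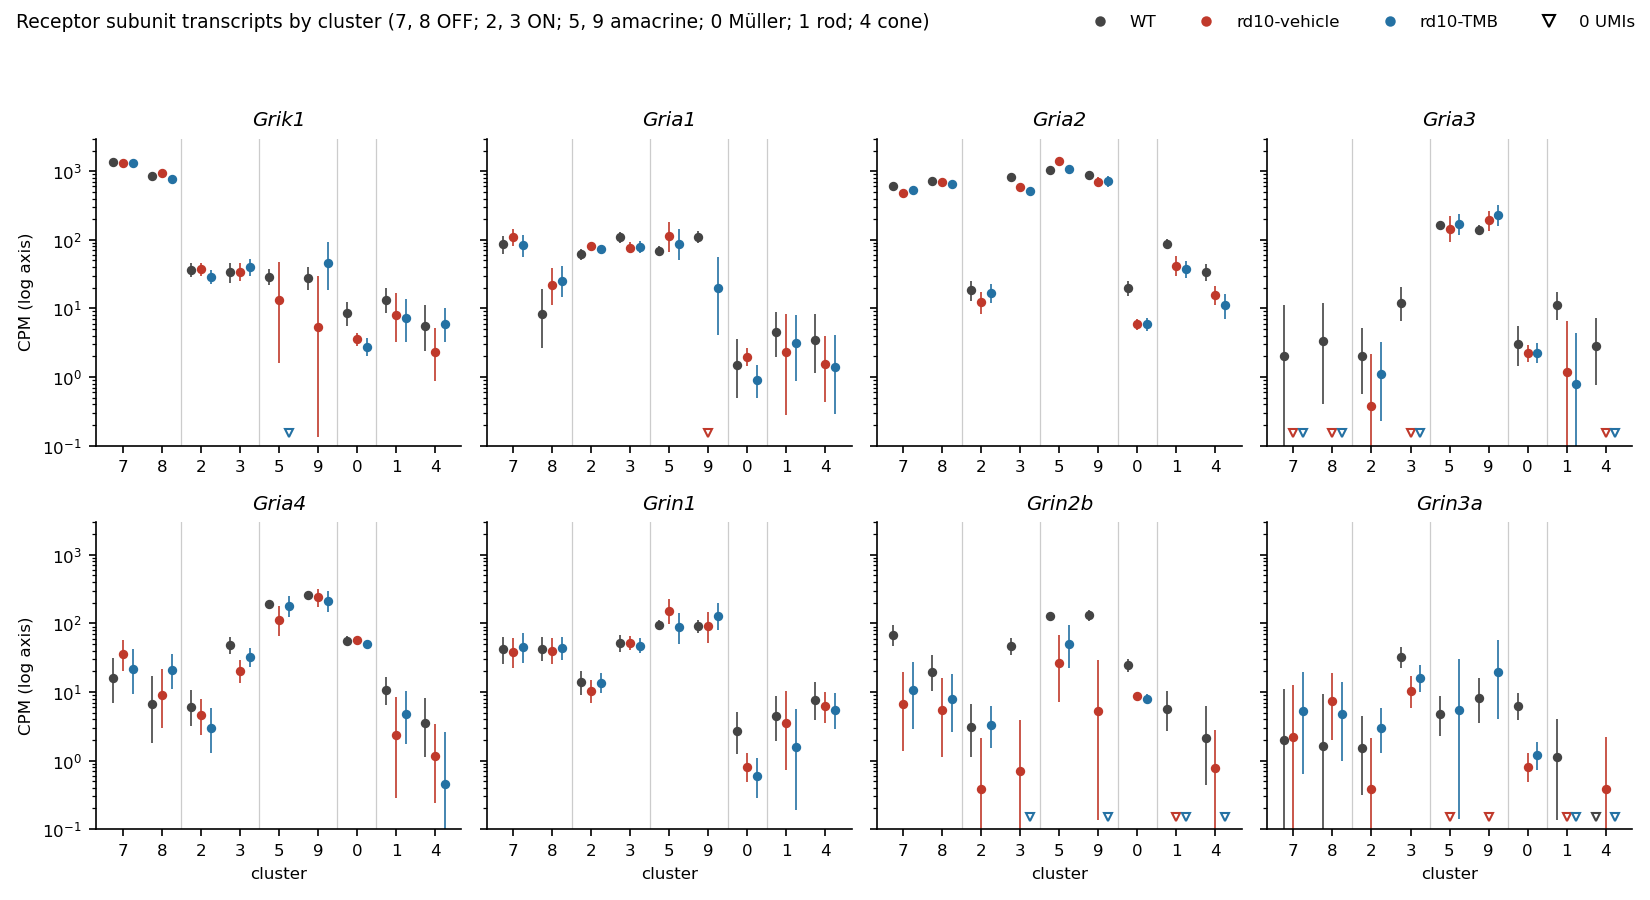
Level of each of the 8 subunits in CPM (log axis) by cluster, 1 point per library with its 95% counting interval; open triangles at the bottom edge are clusters with 0 UMIs. Grik1 stands at 780 to 1364 CPM in clusters 7 and 8 and below 50 CPM in the other clusters drawn, Gria2 stands high in clusters 7, 8, 3, 5 and 9 and low in cluster 2, and Gria3 stands above 140 CPM in clusters 5 and 9 and below 13 CPM in the other clusters drawn.

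Gria2, which encodes GluA2, the subunit that limits calcium entry, was the AMPA member with the most UMIs in OFF bipolar cells. It stood at 673, 601 and 611 CPM in OFF bipolar cells. The ON class as a whole had 303, 214 and 179 CPM, a ratio of OFF to ON of 2.22 (interval 2.02 to 2.45), 2.81 (2.53 to 3.13) and 3.42 (3.06 to 3.81). That class average joined 2 unlike clusters. Cluster 3, the ON cone bipolar cells, had 823, 582 and 514 CPM, as much as the OFF cells, while cluster 2, the rod bipolar cells, had 18.3, 12.2 and 16.7 CPM. Cluster 3 was therefore 44.9-, 47.6- and 30.8-fold above cluster 2, and OFF bipolar cells were 0.818-, 1.03- and 1.19-fold of cluster 3. Gria2 thus divided cone bipolar cells of both response types from rod bipolar cells rather than OFF from ON. In thinned rod bipolar cells 0.998%, 1.38% and 1.26% had a Gria2 UMI, below the 8.70%, 4.30% and 2.55% of thinned rods. Rods themselves had 86.8, 41.8 and 37.2 CPM of Gria2, so their share does not give a background level for it, and free RNA was not told apart from low expression in rod bipolar cells. Amacrine cells had 997, 1026 and 901 CPM, 1.48-, 1.71- and 1.48-fold above the OFF cells.

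Gria1, which encodes GluA1, had the largest ratio between the OFF clusters among the 6 members tested. It was at 85.4, 110 and 82.7 CPM in cluster 7 and at 8.24, 21.9 and 25.3 CPM in cluster 8. The ratio was 10.4 (interval 4.11 to 33.5), 5.0 (2.62 to 10.3) and 3.27 (1.73 to 6.40). A Gria1 UMI was found in 9.22%, 8.33% and 10.1% of thinned cluster 7 cells. In thinned cluster 8 cells it was found in 1.56%, 0.671% and 0 of 139, where a limit of 3 cells allows a share of up to 2.16%. ON bipolar cells had 78.7, 78.9 and 74.7 CPM, near cluster 7, so cluster 8 had the least Gria1 among clusters 2, 3, 7 and 8. Cluster 10, which lies outside the classes compared but passed 5 of 6 ON bipolar markers, had less still, at 5.32, 16.6 and 7.63 CPM.

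Gria4 and Gria3, which encode GluA4 and GluA3, were amacrine genes. Gria4 was at 211, 183 and 196 CPM in amacrine cells and at 10.8, 21.1 and 20.9 CPM in OFF bipolar cells, a ratio of 19.6 (interval 11.1 to 38.1), 8.65 (5.20 to 14.9) and 9.41 (5.69 to 16.2). A Gria4 UMI was found in 1.49%, 2.84% and 1.94% of thinned OFF cells and in 0.734%, 0.410% and 0.601% of thinned rods, with overlapping intervals. Gria3 was at 158, 171 and 196 CPM in amacrine cells, while OFF bipolar cells held 3, 0 and 0 UMIs of it. Amacrine cells were 58.4-fold (19.9 to 284) higher in WT, and at least 56.6-fold and 65.9-fold higher in the rd10 libraries, taking 3 counts per library as the limit of a count of 0. Gria4 was also the AMPA subunit of Müller glia, at 55.7, 57.3 and 50.3 CPM, which was 5.16-, 2.71- and 2.41-fold above the OFF cells.

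The NMDA subunits were low in bipolar cells. Grin1, which every NMDA receptor needs, was at 42.3, 39.2 and 44.7 CPM in OFF bipolar cells. It was at 51.3, 52.5 and 47.5 CPM in cluster 3 and at 13.7, 10.3 and 13.7 CPM in cluster 2, so it followed the same line between cone and rod bipolar cells as Gria2. Amacrine cells had 94.3, 118 and 107 CPM, 2.23-, 3.0- and 2.40-fold above the OFF cells. Müller glia had 2.71, 0.811 and 0.596 CPM, with a UMI in 0.190%, 0.121% and 0.116% of thinned cells. Thinned rods had one in 0.524%, 0 (of 488 cells, which allows up to 0.615%) and 0.15%, so Grin1 was not detectable above the rod share in the glia.

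Grin2b, which encodes GluN2B, was at 41.4, 6.04 and 8.94 CPM in OFF bipolar cells, from 46, 6 and 9 UMIs. A UMI of it was found in 3.72%, 0.946% and 0.388% of thinned OFF cells, and the intervals of the rd10 shares overlap those of the rods. In amacrine cells it was at 130, 14.7 and 26.8 CPM. Müller glia had 24.7, 8.78 and 7.93 CPM from 82, 195 and 133 UMIs, and 2.85%, 0.889% and 1.10% of their thinned cells had a UMI. Of thinned rods 0.629% had one in WT, and in the rd10 libraries 0 of 488 and 0 of 666 had one, which allows a share of up to 0.615% and 0.450%. Grin3a, which encodes GluN3A, rested on 2, 5 and 5 UMIs in OFF bipolar cells. It was highest in cluster 10, which lies outside the classes compared here, at 71.5, 113 and 66.8 CPM. Cluster 3 came next by the mean, at 32.6, 10.49 and 16.1 CPM. Its range overlapped that of cluster 6, at 15.6, 13.1 and 5.76 CPM. A Grin3a UMI was found in 0 of 269 thinned OFF bipolar cells of WT and 0 of 258 of rd10-TMB, which allows shares of up to 1.12% and 1.16%, and in 0.631% of those of rd10-vehicle. Unthinned, 2, 4 and 5 OFF cells had one, and the intervals of the thinned shares overlap those of the rods.

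Counted over the members, 7 of the 8 had the 50 UMIs needed to compare OFF with ON bipolar cells, and Gria3 had not. Grik1, Gria2 and Grin2b were at least 2-fold higher in OFF cells in each of the 3 libraries, 3 of 7, where 4.95% of 11061 genes were. Grin2b rested on 46, 6 and 9 UMIs in OFF cells against 56, 2 and 9 in ON cells, and in WT its level in cluster 3, 46.6 CPM, was above that of OFF cells. A gene that reaches the minimum through its higher side alone had to differ, so these counts and those that follow describe the genes and support nothing. None of the 7 was at least 2-fold lower in each library, where 3.24% of genes were. The count was 1, Grik1, with cluster 3 alone as the ON side, with the mean over cells in place of summed UMIs and after thinning. Against amacrine cells Grik1 was higher and Gria3, Gria4, Grin1 and Grin2b were lower, 1 and 4 of 7 members tested beside 5.07% and 9.03% of 10289 genes. Gria3 is in this count through amacrine cells alone. Against Müller glia Grik1, Gria1, Gria2 and Grin1 were higher and Gria4 was lower, 4 and 1 of 8 beside 15.9% and 15% of 13628 genes. Between cluster 7 and cluster 8, Gria1 was higher in cluster 7, 1 of 6 members tested where 2.86% of 7621 genes were, and none was lower, where 3.41% were. The median log2 ratio over the tested members was 0.73 against ON bipolar cells, -1.33 against amacrine cells and 3.16 against Müller glia, beside 0.11, -0.09 and 0.29 over all tested genes.

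**Figure D2:**
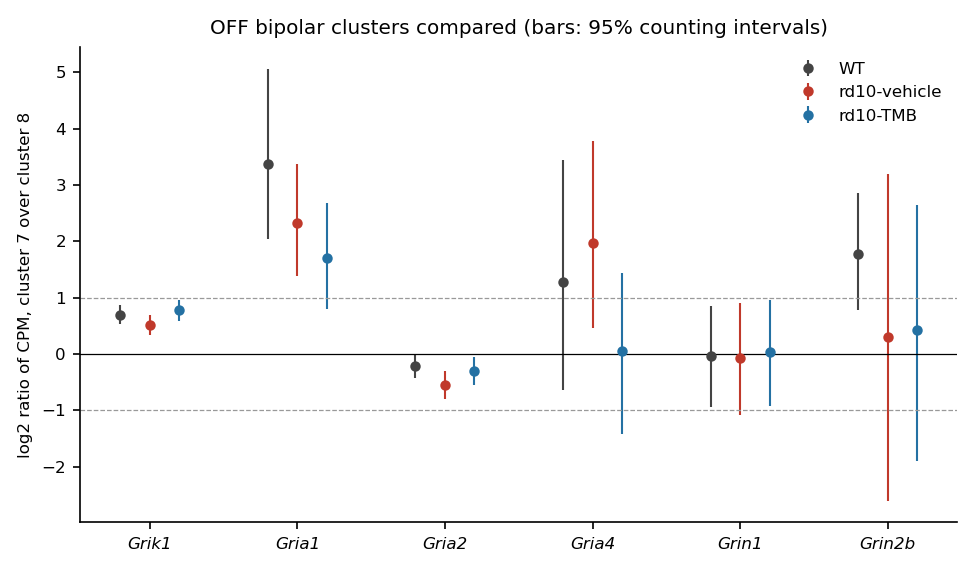
Ratio of CPM between the OFF bipolar clusters, cluster 7 over cluster 8, on a log2 axis for the 6 members with at least 50 UMIs; points are libraries, bars 95% counting intervals and dashed lines 2-fold. Gria1 lies above the upper line in each library, Grik1 lies between the lines and above 0, and Gria2 lies slightly below 0.

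Within the OFF class, Grik1 and Gria2 leaned opposite ways. Grik1 was at 1364, 1319 and 1334 CPM in cluster 7 and at 841, 927 and 780 CPM in cluster 8, a ratio of 1.62 (interval 1.45 to 1.82), 1.42 (1.26 to 1.61) and 1.71 (1.51 to 1.94). Gria2 was at 617.6, 479 and 534 CPM in cluster 7 and at 719, 700 and 657 CPM in cluster 8, a ratio of 0.860, 0.684 and 0.813, each with an interval below 1. Grin1 was the same in both within counting error, at 38.1 to 45.4 CPM. Cells with a UMI of Erbb4, a marker of OFF type 3A, fell in cluster 8 in 92 of 92, 86 of 86 and 96 of 96 cases. Cells with Nnat, a marker of OFF type 3B, fell in cluster 7 in 88 of 99, 139 of 155 and 95 of 120 cases. Gria1 stood at 10.9, 24.0 and 28.4 CPM in the Erbb4 cells and at 70.4, 103 and 68.3 CPM in the Nnat cells, which restates the cluster difference, since the markers divide the cells nearly as the clusters do. Cells with Pcdh10, a marker of another OFF type, numbered 33, 12 and 4, too few to follow a subunit in the rd10 libraries. Those with Pcdh17 numbered 31, 10 and 8 and those with Col11a1 25, 2 and 3, both also listed as OFF type markers. In WT 28 of the 31 and 24 of the 25 fell in cluster 7. Cluster 7 thus held cells with markers of several OFF types, in numbers that differed between libraries.

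Grik1 and Gria2 were found in the same cells. Among OFF bipolar cells with a Grik1 UMI, 214 of 250, 214 of 292 and 204 of 250 also had a Gria2 UMI, or 85.6%, 73.3% and 81.6%. Among those without one, 17 of 23, 22 of 35 and 10 of 18 had Gria2, and these cells had fewer UMIs at the median (3032, 2714 and 2880 against 4179, 3004 and 3716), so depth moved with the difference.

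Over the 4 AMPA subunits, the share of UMIs that came from Gria2 was high in OFF, ON cone bipolar and amacrine cells and low in rod bipolar cells and Müller glia. It was 97.5%, 95.8% and 93.5% in cluster 8 and 85.7%, 76.7% and 83.7% in cluster 7, with Gria1 the next in cluster 7 at 11.8%, 17.6% and 13.0%. In cluster 3 it was 82.9%, 85.7% and 82.1%. Rod bipolar cells of cluster 2 were the reverse, with 70.1%, 82.3% and 77.7% from Gria1 and 20.7%, 12.6% and 17.9% from Gria2. Amacrine cells had 68.9%, 71.8% and 66.7% from Gria2 and drew on all 4 genes, with 10.9%, 12.0% and 14.5% from Gria3 and 14.6%, 12.8% and 14.5% from Gria4. Müller glia had 69.8%, 85.1% and 84.8% from Gria4. A share of UMIs is not a share of protein, since capture may differ by gene, and whether it also differs by class was not tested.

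**Figure D3:**
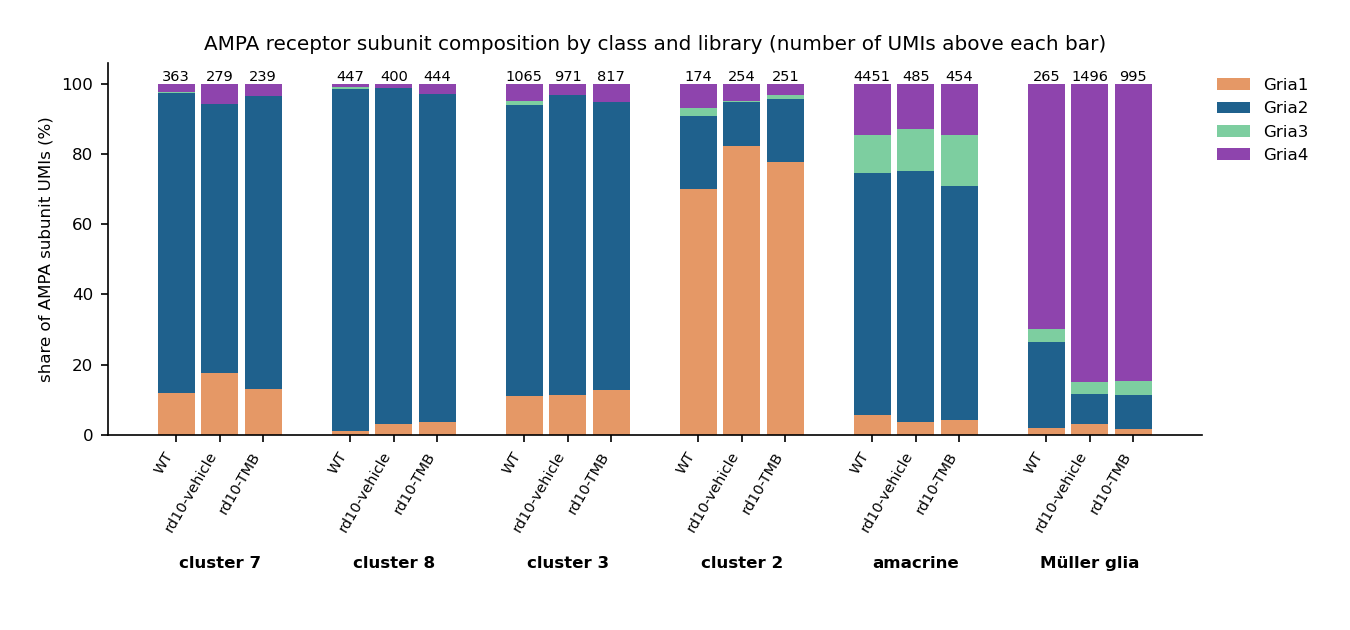
Share of AMPA subunit UMIs from each of Gria1 to Gria4, as stacked bars of 100% per class and library with the number of UMIs above each bar. Gria2 fills 76.7% to 97.5% of the bars of clusters 7, 8 and 3, Gria1 fills 70.1% to 82.3% in cluster 2, and Gria4 fills 69.8% to 85.1% in Müller glia.

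Counted over all 18 ionotropic subunit genes, kainate receptor genes gave 57.0%, 59.7% and 56.9% of the UMIs of OFF bipolar cells, AMPA genes 37.0%, 35.6% and 37.8%, and NMDA genes 4.44%, 2.62% and 3.27%. In ON bipolar cells AMPA genes gave 67.8%, 66.8% and 64.1% and in amacrine cells 72.3%, 79.9% and 78.3%. Kainate genes led in OFF bipolar cells and in no other of these 4 classes. In Müller glia delta receptor genes gave the largest share, 38.2%, 40.6% and 45.4%.

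The remaining 10 subunits of the family added little to OFF bipolar cells. None of the 4 that could be compared with ON cells passed 2-fold. Against amacrine cells Grik2 and Grin2a were lower, 2 of 5 beside 9.03% of all genes tested, and Grid1 was higher, 1 of 5 beside 5.07%. Grin2a reached the minimum through WT amacrine cells alone, with 1, 0 and 0 UMIs in OFF cells against 216, 2 and 1, so nothing is read from its rd10 ratios. Grik2, which encodes the kainate subunit GluK2, was at 12.6, 12.1 and 7.95 CPM in OFF cells and at 119, 85.5 and 113 CPM in amacrine cells. Grik5, a kainate subunit that works only together with GluK1 to GluK3, was higher in cluster 7 (47.7, 38.1 and 40.03 CPM) than in cluster 8 (19.8, 18.3 and 18.99 CPM).

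Auxiliary subunits, which ride on AMPA and kainate receptors and set their trafficking and kinetics, also differed. Of 14, 5 could be compared between OFF and ON cells and 3 were higher in OFF cells, Cacng2, Gsg1l and Neto1, beside 4.95% of all genes tested. With cluster 3 alone as the ON side it was 1 of 5, Cacng2. Neto1 is also one of the 13 OFF bipolar markers, so its call is in part its own label. Cacng2, which encodes stargazin, was at 73.0, 62.4 and 46.7 CPM in OFF cells against 10.9, 3.71 and 4.25 CPM in ON cells, and nearly all of it was in cluster 7 (149, 130 and 104 CPM, against 9.89, 7.31 and 12.7 CPM in cluster 8), the cluster that also had Gria1. Neto1, an auxiliary subunit of kainate receptors, was at 26.1, 6.04 and 5.96 CPM against 7.24, 1.24 and 1.498 CPM. Against amacrine cells 7 of 11 auxiliary subunits were lower, Cacng3, Neto2 and Cacng5 among them, beside 9.03% of genes, and none was higher, beside 5.07%. The 3 named genes were in the count through amacrine cells alone. Cacng3 was at 5.40, 0 and 0 CPM in OFF cells and at 111, 133 and 140 CPM in amacrine cells.

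Of 12 scaffold and editing genes, all of which could be compared, none passed 2-fold between OFF and ON cells, 3 were lower in OFF cells than in amacrine cells (Grip1, Grip2 and Adarb1, beside 9.03% of genes). Against Müller glia 4 of 12 were higher, beside 15.9%, and 1 of 12 was lower, beside 15%. Adarb1, the editing enzyme, was at 57.6, 40.3 and 37.7 CPM in OFF cells, 386, 333 and 286 CPM in amacrine cells and 13.0, 10.6 and 9.95 CPM in Müller glia. Shank1, a scaffold of excitatory synapses, was at 112, 95.6 and 122 CPM in OFF cells and 7.23, 3.65 and 4.83 CPM in Müller glia.

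Between libraries, 4 of the 5 members that could be compared in OFF bipolar cells were within 1.5-fold of WT. Grik1 had a log2 ratio of rd10-vehicle over WT of 0.03 (interval -0.09 to 0.15), of rd10-TMB over WT of -0.13 (-0.25 to -0.01) and of rd10-TMB over rd10-vehicle of -0.16 (-0.29 to -0.04). Gria2 had -0.16 (-0.32 to -0.01), -0.14 (-0.30 to 0.02) and 0.02 (-0.14 to 0.19). For both genes these intervals stay within 1.5-fold. Gria1 and Grin1 were within 1.5-fold as well, with wider intervals that reach past it. In cells whose mitochondrial share was at most 10%, however, Gria1 was at 42.8, 58.1 and 34.2 CPM, so that rd10-TMB was past 1.5-fold below rd10-vehicle. In cells above 10% it was the other way round, at 45.7, 77.7 and 130 CPM from 7, 13 and 17 UMIs. Gria4, with 12, 21 and 21 UMIs, had too few to compare. The fifth member was Grin2b, which was 6.86-fold lower in rd10-vehicle than in WT (interval 2.92 to 19.7) and 4.63-fold lower in rd10-TMB (2.24 to 10.8). It was the only 1 of 5 members tested past 1.5-fold for either rd10 library against WT, beside 6.58% and 6.18% of genes. It reached the minimum of 50 UMIs through the 46 of WT, where it was high, so the count itself supports nothing. Of 4 members, 0 passed for rd10-TMB over rd10-vehicle, beside 5.34%. Of the pathway genes, Grid1, a delta receptor gene, had a log2 ratio of rd10-vehicle over WT of 0.72, with an interval that spans no difference (-0.12 to 1.64). Cacng2 and Adarb1 were lower in rd10-TMB than in WT (log2 -0.63, interval -1.19 to -0.11, and -0.60, -1.23 to -0.01). Neto1, at 29, 6 and 6 UMIs, had too few to compare.

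**Figure D4:**
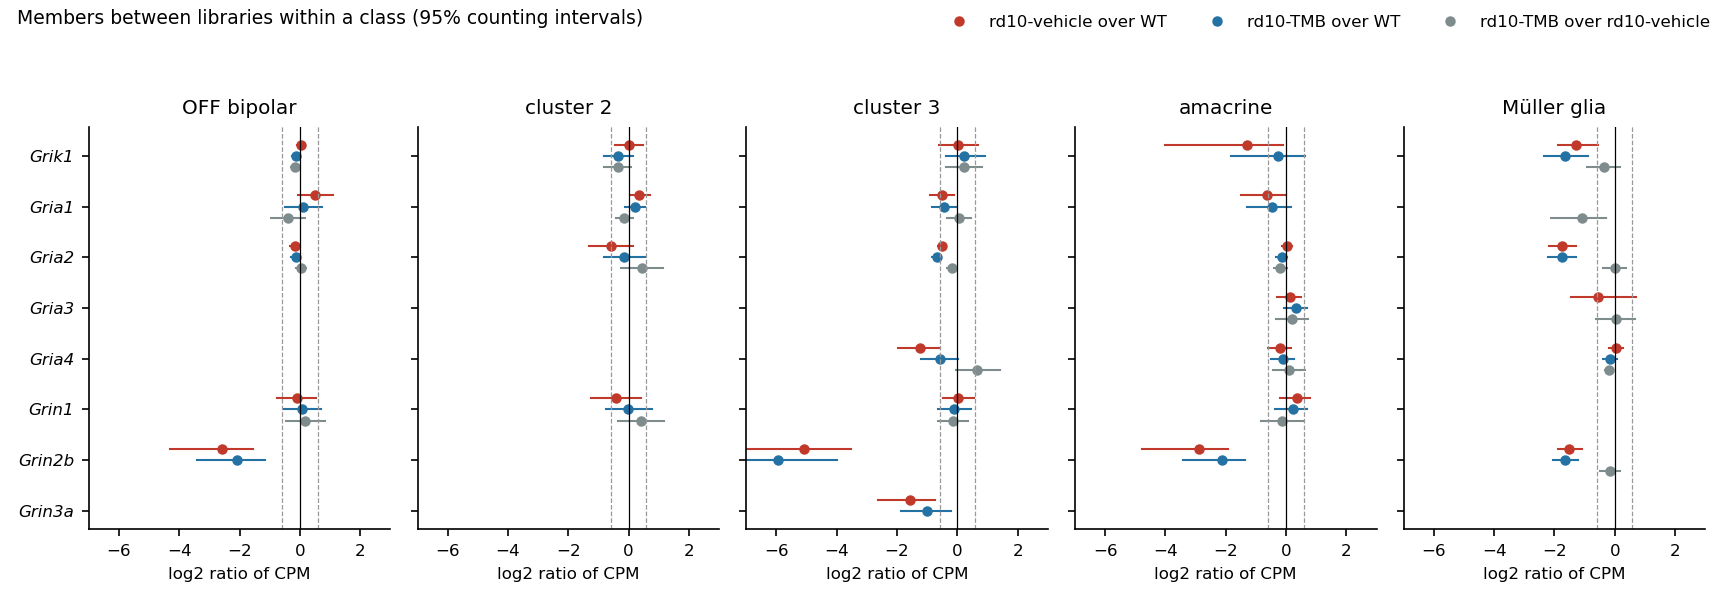
Log2 ratio of CPM between libraries for members with at least 50 UMIs over both, in 5 classes; bars are 95% counting intervals, cut at the panel edge where they run further, and dashed lines mark 1.5-fold. In OFF bipolar cells Grik1 and Gria2 lie within 0.16 of 0, and Grin2b lies to the left in OFF bipolar, cluster 3, amacrine and Müller cells for both rd10 libraries.

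In other classes Grin2b was also lower in the rd10 libraries, though in cluster 3 and amacrine cells it too reached the minimum through WT alone. Amacrine cells were 8.85-fold (interval 3.76 to 27.4) and 4.87-fold (2.54 to 10.7) lower than WT. In cluster 3 it had 50, 1 and 0 UMIs, which is 66.6-fold lower (11.4 to 2683) in rd10-vehicle and at least 20.3-fold lower in rd10-TMB. Müller glia were 2.81-fold (2.15 to 3.66) and 3.12-fold (2.34 to 4.13) lower. Amacrine markers moved with these values: their summed level was 76.6, 26.2 and 11.9 CPM in OFF bipolar cells, with 8, 7 and 7 of 9 markers found and Tfap2a at 0 in each library, and 217, 49.0 and 31.4 CPM in cluster 3. In cells without a UMI of 6 amacrine markers (238, 317 and 260 OFF bipolar cells) Grin2b was at 36.4, 6.27 and 7.21 CPM in OFF bipolar cells, at 43.0, 0.729 and 0 CPM in cluster 3 and at 26.3, 8.98 and 8.02 CPM in Müller glia. In OFF bipolar cells whose mitochondrial share was at most 10% it was at 36.6, 7.26 and 7.99 CPM. The WT pool held both sexes, and among WT cells that had Xist but no UMI of a Y-linked gene the log2 ratios in OFF bipolar cells were -1.54 and -1.04. In each of these subsets the OFF bipolar cells of a pair of libraries held fewer Grin2b UMIs than the 50 required, so that 0 members passed there. Cluster 11, which passed 5 of 6 endothelial markers and lies outside the classes compared here, had 26.5, 0.554 and 1.59 CPM of Grin2b, from 37, 1 and 2 UMIs. A cell without a UMI of these amacrine markers can still hold free RNA, whose part in the values of any class was not tested. Genotype, sex, pool and library cannot be told apart here, nor can fewer cells that carry the gene and less RNA per cell.

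In cluster 3, the ON cone bipolar cells, 3 of 7 members passed 1.5-fold for rd10-vehicle over WT (Gria4, Grin2b and Grin3a, all lower, beside 10.7% of genes) and 3 of 7 for rd10-TMB over WT (Gria2, Grin2b and Grin3a, all lower, beside 10.2%). The level of Gria2 there moved with the mitochondrial share of the cells. In cells at or under 10% Gria2 was at 584, 548 and 483 CPM, a log2 ratio of rd10-TMB over WT of -0.27 in place of -0.68. In cells above 10% it was at 1678, 903 and 740 CPM. Such cells made up 40.4%, 17.6% and 22.1% of cluster 3. Gria4 was at 32.2, 20.1 and 25.3 CPM in the first set and at 107, 21.7 and 82.9 CPM in the second, whereas Grin2b was lower in the rd10 libraries in both. The part of RNA quality in the difference was not tested further. For rd10-TMB over rd10-vehicle the ratio of Gria4 was 1.59, with an interval that spans no difference (log2 -0.05 to 1.40), the 1 of 5 members past 1.5-fold beside 4.66% of genes.

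**Figure D5:**
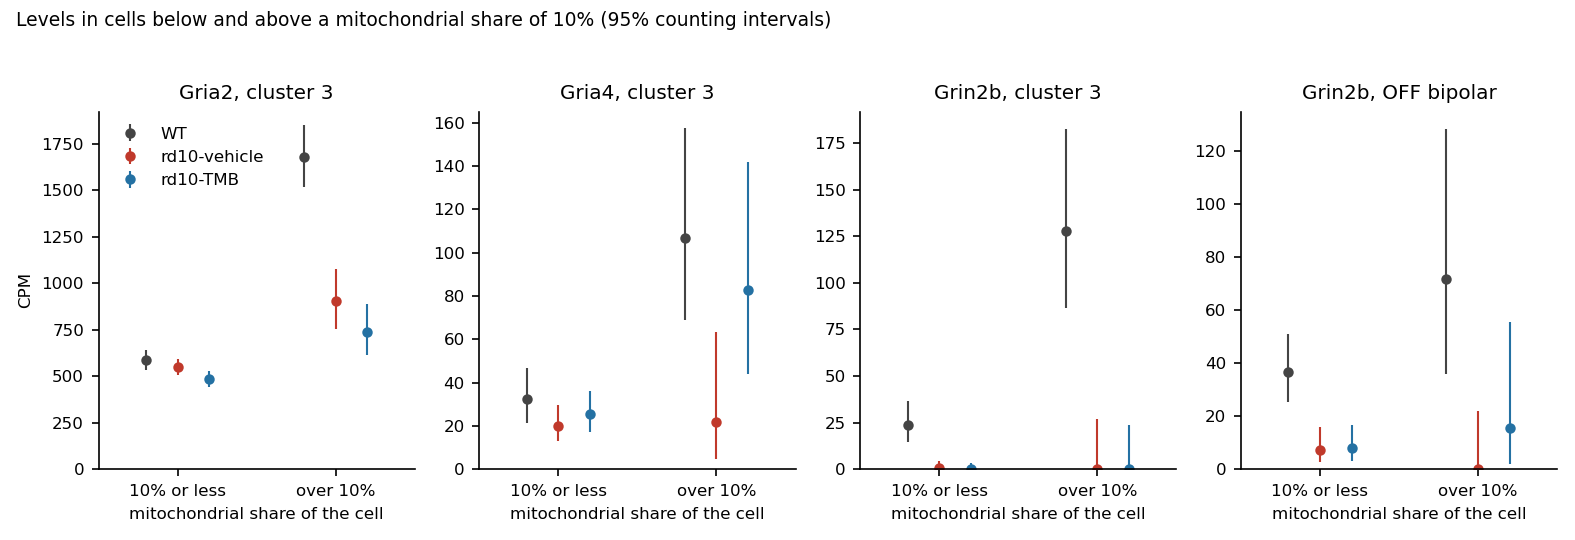
Level in CPM of Gria2, Gria4 and Grin2b in cluster 3 and of Grin2b in OFF bipolar cells, for cells with at most 10% and with over 10% of their UMIs from mitochondrial genes; points are libraries and bars 95% counting intervals. Gria2 of cluster 3 lies between 483 and 584 CPM in the first set and reaches 1678 CPM in WT in the second, and Grin2b is highest in WT in each panel and set.

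In cluster 2, 0 of 4 members passed 1.5-fold in any of the 3 pairs of libraries, beside 6.59%, 5.96% and 4.24% of genes, and Gria2 and Grin1 there rested on 27 to 45 UMIs per library. In amacrine cells 3 of 7 members passed for rd10-vehicle over WT (Grik1, Gria1 and Grin2b, all lower, beside 23.6% of genes), 1 of 7 for rd10-TMB over WT (Grin2b, lower, beside 22.1%) and 0 of 4 for rd10-TMB over rd10-vehicle (beside 8.89%). For rd10-TMB over WT the count was 5 with the mean over cells (Grik1, Gria1 and Grin2b lower, Gria3 and Grin1 higher), and 3 after thinning and in cluster 9 alone. Grik1 (88 and 3 UMIs), Gria1 (250 and 17) and Grin2b (401 and 5) reached the minimum for rd10-vehicle over WT through WT alone. The low Gria1 was that of cluster 9, with 107, 0 and 3 UMIs, while in cluster 5 alone the log2 ratio was 0.80 in place of -0.62. Gria2 had a log2 ratio of 0.04 (interval -0.12 to 0.20) and -0.14 (-0.32 to 0.03) against WT in the amacrine cells that were captured, and Gria3, Gria4 and Grin1 were within 1.5-fold as well, although those cells were far fewer in the rd10 libraries. Among other subunits Grin2a, which encodes GluN2A, had 216, 2 and 1 UMIs in amacrine cells, a log2 ratio of -2.997 (interval -6.63 to -1.70) and -3.57 (-9.87 to -2.07). It reached the minimum through WT alone.

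In Müller glia 3 of 5 members passed for rd10-vehicle over WT and 3 of 4 for rd10-TMB over WT (Grik1, Gria2 and Grin2b in both, all lower, beside 18% and 15.1% of genes), and 1 of 6 for rd10-TMB over rd10-vehicle (Gria1, lower, from 44 and 15 UMIs, beside 3.3%). After thinning each of these 3 counts was 0, and with a minimum of 200 UMIs the counts against WT were 1. Grik1 and Gria2 were at low levels in these cells, with a UMI in 0.569%, 0.283% and 0.290% of thinned Müller glia for Grik1 and in 1.90%, 0.363% and 0.405% for Gria2. Both were below the shares of thinned rods given above, and whether these UMIs were free RNA was not tested. Gria4, the main AMPA gene of the glia, had a log2 ratio of 0.03 (interval -0.18 to 0.27) and -0.15 (-0.38 to 0.09) against WT. Grik3, a kainate subunit outside the 8 members, had 0, 125 and 61 UMIs in Müller glia, or 0, 5.63 and 3.64 CPM. Neto2, an auxiliary subunit of kainate receptors, was the other way round at 45.8, 17.9 and 16.6 CPM.

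Over the 16 clusters with at least 50 cells, the genes whose profile was most like that of each member were named by Pearson's r of log2(CPM + 10) among 13179 genes. These are descriptions across clusters that share libraries and depth. Grik1 was most like Fezf2 (r = 0.945), a transcription factor of OFF bipolar cells, then Cntnap5a and Epha3. Gria2 was most like Rab3c (0.970), a synaptic vesicle GTPase, then Snhg11 and Serp2, and Grin1 was most like Clec2l (0.986), Scrt1 and Syn1. Gria3 was most like Slc32a1 (0.959), the vesicular transporter of GABA and glycine, then Gm14204 and Cacng5, and Gria4 like Kctd8 (0.971), Zfp711 and Inpp5j. Gria1 was most like Pcdha4 (0.93), Pcdhb6 and Ftx, Grin2b like Rec8 (0.920), Nrg3 and Sgsm1, and Grin3a like Nectin4 (0.932), Vwc2l and Ryr3. Among the members the highest r was that of Gria2 with Grin1 (0.910) and the lowest that of Grik1 with Gria3 (-0.122). In the order of levels, neighbouring clusters overlapped in the range of their 3 libraries in 12 to 15 of 15 pairs for each member. For Grik1, clusters 7 and 8 stood apart from each other and from the cluster after them.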

How the data were processed

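Freshly dissociated retinal cells were run on the 10x Genomics Chromium system with v3 chemistry, and the submitters' processing notes name Cell Ranger 6.0.1, Seurat 3.2.2 and build mm10. Per the study's methods, doublets called by Scrublet were removed, cells had at least 500 detected genes, and libraries were integrated with Harmony before clustering. The authors deposited a matrix of natural log values, ln(1 + UMIs per 10000 of the cell), with the clusters and the total count of each cell. The deposited totals gave back whole counts for 100% of 32620606 entries, within 0.001 UMI. The cluster numbers are those of the authors.

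Counts were summed by library and class and given as CPM. CPM has an exact Poisson interval, a share a Clopper-Pearson interval and a ratio an exact conditional interval, all at 95%. With 1 library per group no test across genes was run. Members needed 50 UMIs over both sides of a comparison. Limits were 2-fold in each of the 3 libraries between classes and 1.5-fold between libraries. For the log2 ratios of both, on which the limits were judged, 1 UMI was added to each summed count. Folds are given without it. Thinning drew 1000 UMIs per cell and left out shallower cells. The 8 members, the pathway lists and the markers were chosen with earlier results of these data known. Genes named are the members, list genes past a limit, and the 3 genes most like each member among those with at least 200 UMIs. Sequences and positions are from the GENCODE annotation of GRCm38. Alternatives changed scaling, cell filters, thinning, count minimum, fold limit, pseudocount and clusters. The procedures were tested on simulated data. Tools were Python 3.11.15, NumPy 2.4.6, SciPy 1.17.1, pandas 2.3.3 and Matplotlib 3.10.9.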

Additional observations from a re-analysis of the deposited data

Results flagged for a closer look

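In 3 genes the same pair of libraries differed in opposite directions in different clusters, each beyond counting error. The difference between clusters was not tested, since each group is 1 library.

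For Gria1, the log2 ratio of rd10-TMB over WT was 0.91 (interval 0.37 to 1.49) in cluster 6 and -2.10 (-4.80 to -0.91) in cluster 9, where it rested on 3 and 107 UMIs. For Gria3, it was 0.73 (0.12 to 1.25) in cluster 9, -3.88 (-6.09 to -2.78) in cluster 6 and -0.75 (-1.24 to -0.33) in cluster 10. The summed amacrine markers moved the same way as Gria3 and the opposite way to Gria1 between these libraries, at 2108, 163 and 130 CPM in cluster 6 of the WT, rd10-vehicle and rd10-TMB libraries, 1776, 331 and 879 CPM in cluster 10, and 2478, 2884 and 2985 CPM in cluster 9. Their part in either result was not tested.

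For Grin3a, the log2 ratio of rd10-vehicle over WT was 0.68 (0.10 to 1.21) in cluster 10 and -1.58 (-2.62 to -0.73) in cluster 3. The amacrine marker sum of cluster 3 was 217, 49.0 and 31.4 CPM.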

How the results depend on the processing

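No paired analysis was possible because each group is 1 library. The counts of members past a limit between classes moved by over 1.5 times in 8 of 92 alternatives, and those between libraries in 65 of 199. Single ratios moved in 24 of 198 alternatives between classes and in 16 of 266 between libraries, where 1 more reversed, and shares of cells with a UMI moved in 18 of 24 when cells were not thinned. Where the member falls under the count minimum, the loss comes from the alternative's own construction; the cause of the other moves was not tested.

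Between classes, members higher in OFF than in ON bipolar cells went from 3 to 1 with the mean over cells, after thinning and with cluster 3 alone as the ON side, and members lower from 0 to 1 with cluster 8 alone as the OFF side. Members lower in OFF bipolar cells than in Müller glia went from 1 to 0 with the mean over cells, after thinning and with cluster 7 alone, and to 2 without the WT library, an alternative chosen after seeing the data.

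In OFF bipolar cells the single member past 1.5-fold, Grin2b, went to 0 for rd10-vehicle over WT in cells with at least 1000 genes. For both rd10 libraries over WT it went to 0 in cells whose mitochondrial share was at most 10%, without the 5% of cells with the most UMIs, after thinning, in WT cells with Xist, at 200 UMIs, in cells with no amacrine marker UMI (also chosen after seeing the data), and in cluster 7 or 8 alone, and the count was 2 at 20 UMIs. For rd10-TMB over rd10-vehicle the count went from 0 to 1, Gria1, in cells whose mitochondrial share was at most 10%.

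In cluster 2, rd10-vehicle over WT went from 0 to 1 with size factors, with totals without mitochondrial and ribosomal protein genes, in cells with at least 1000 genes and in cells with no amacrine marker UMI. There rd10-TMB over WT went to 1 at 20 UMIs, and rd10-TMB over rd10-vehicle to 1 with the mean over cells, at a mitochondrial share of 10% or less and without the 5% of cells with the most UMIs.

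In cluster 3, rd10-vehicle over WT went from 3 to 5 with the mean over cells, to 1 in cells with at least 1000 genes, at a mitochondrial share of 10% or less, in WT cells with Xist and with no amacrine marker UMI, and to 0 at 200 UMIs. There rd10-TMB over WT went from 3 to 1 in cells with at least 1000 genes, in WT cells with Xist, at 200 UMIs, with no amacrine marker UMI and at a 2-fold limit, and to 0 at a mitochondrial share of 10% or less. For rd10-TMB over rd10-vehicle 1 became 2 with the mean over cells and at 20 UMIs, and 0 in cells with at least 1000 genes, at a mitochondrial share of 10% or less, without the 5% of cells with the most UMIs, after thinning, at 200 UMIs and at 2-fold.

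In amacrine cells rd10-TMB over WT went from 1 to 5 with the mean over cells, to 2 without the 5% of cells with the most UMIs, at 20 UMIs and in cluster 5 alone, and to 3 after thinning and in cluster 9 alone. There rd10-TMB over rd10-vehicle went from 0 to 1 with the mean over cells and in cluster 5 alone. The log2 ratio of Gria1 for rd10-vehicle over WT reversed from -0.62 to 0.80 in cluster 5 alone.

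In Müller glia both rd10 libraries over WT went from 3 to 0 after thinning, to 5 at 20 UMIs and to 1 at 200 UMIs. There rd10-TMB over rd10-vehicle went from 1 to 0 without the 5% of cells with the most UMIs, after thinning and at 200 UMIs.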
